A study of Mus musculus with 2 samples.

Results

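The genes that encode translation initiation factors were taken as the protein-coding genes of GENCODE release M21 on chromosomes 1 to 19 and X whose symbol starts with Eif and a digit, with the eIF2 kinases and the eIF4E-binding proteins included, plus Denr and Mcts1. The rule gave 56 genes of 21755. Their EP300 occupancy was read from chromatin immunoprecipitation and sequencing of stomach tissue taken from B6NCrl mice on postnatal day 0. EP300 is a transcriptional co-activator that acetylates histones. The 2 libraries form 1 group, with no other tissue, stage or genotype beside it, and the labels give the sex as not collected. They are numbered as biological replicates 1 and 2, although biosample and donor are labelled alike for both, and their spread may not cover differences between animals. All 8 stomach markers examined had an EP300 summit within 50 kb of a start, against 36.7% of all protein-coding genes. Within 1 kb 2 of the 8 did, Actg2 and Acta2, a larger share than the 11.3% of all genes. The counts within 50 kb began at 1 summit for Gkn1 and for Gkn2, genes of the glandular stomach. They reached 6 at Krt13, a keratin of squamous epithelium such as that of the forestomach. A summit within reach of several genes was counted for each, so neighbouring markers may have shared summits.

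Initiation brings the small ribosomal subunit, the initiator tRNA and an mRNA together at the start codon. eIF2 carries the initiator tRNA and is recharged by the exchange factor eIF2B, eIF3 organises the small subunit, and the eIF4 proteins bind the mRNA cap and unwind the leader. EP300 marks active promoters and enhancers in many tissues, and many of the initiation factor genes, though not all, are housekeeping genes that most cells transcribe. A peak in whole tissue gives no cell type, and strong occupancy in few cells and weak occupancy in many cannot be told apart.

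The values are peak signals of the authors' peak caller, which stand on a scale of their own in each list. A member was counted where a summit of the optimal set lay within 1 kb, or within 50 kb, of the start of any of its protein-coding transcripts. The optimal set holds 7737 peaks that passed the authors' filter on the irreproducible discovery rate (IDR). The IDR measures how well peak ranks repeat between peak lists. A promoter peak is an optimal peak with its summit within 1 kb of a coding start. Of the 2952 promoter peaks, 362 (12.3%) held no summit of at least 1 of the library lists. A place in the optimal set thus does not by itself show a repeat in both libraries. The pooled list and the list of each library hold 300000 peaks each and so reach far weaker peaks.

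The strongest promoter peaks of the initiation factor genes lay at Denr, Eif4a3 and Eif5, and these peaks shared a palindrome close to the summit. The 30 bases around it are shown for the 4 genes that had it, because those 3 peaks stood far above the other members' peaks. Capitals mark the palindrome TCGCGA, called the CGCG core here. It is the centre of CTCGCGAG, a longer element known from CpG-island promoters. Each line gives the mm10 position and strand, and each sequence runs 5′ to 3′.
Denr, chr5:123907219-123907248, plus strand: tggccggggataTCGCGAtaaaggctcatt
Eif4a3, chr11:119300130-119300159, minus strand: gagcgcggaataTCGCGAgacctggagcgc
Eif5, chr12:111537944-111537973, plus strand: cgagccgggctaTCGCGAgaccgcgaaggc
Eif5b, chr1:37997239-37997268, plus strand: gctacagtcctcTCGCGAtacaatgtgaga
The core lay 8 bp downstream of the summit at Denr, 6 bp upstream at Eif4a3, 16 bp upstream at Eif5 and 40 bp downstream at Eif5b. The Denr peak held a further copy 25 bp upstream of its summit.

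The other member promoters did not carry the core near their summits, and 3 of them are shown for how unlike each other they were. The 201 bases around the summit of Eif2ak3 held 5 copies of the NF-Y box CCAAT, counted on both strands and capitalised. Those of Eif3b were poor in GC, at 39.3%, and held a TATAAA. Those of Eif3d held an uninterrupted run of T and an ETS motif CCGGAAG, capitalised on the opposite strand. All 3 stretches lie upstream of the annotated start, outside annotated exons.
Eif2ak3, chr6:70844269-70844469, plus strand: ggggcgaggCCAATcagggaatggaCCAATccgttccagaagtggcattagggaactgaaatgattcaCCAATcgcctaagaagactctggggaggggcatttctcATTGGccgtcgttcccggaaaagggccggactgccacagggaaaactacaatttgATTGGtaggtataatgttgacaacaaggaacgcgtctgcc
Eif3b, chr5:140419048-140419248, plus strand: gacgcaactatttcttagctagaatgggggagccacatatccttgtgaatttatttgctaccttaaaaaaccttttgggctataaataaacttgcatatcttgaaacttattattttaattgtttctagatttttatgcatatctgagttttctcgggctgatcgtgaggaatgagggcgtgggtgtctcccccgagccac
Eif3d, chr15:77970833-77971033, minus strand: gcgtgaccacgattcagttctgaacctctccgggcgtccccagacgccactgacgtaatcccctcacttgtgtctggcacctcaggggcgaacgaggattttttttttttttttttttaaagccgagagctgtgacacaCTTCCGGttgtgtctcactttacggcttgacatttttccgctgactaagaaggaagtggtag

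Of the 56 initiation factor genes, 15 had an optimal summit within 1 kb of a start, a share of 26.8% (exact 95% binomial interval 15.8 to 40.3). Among all protein-coding genes the share was 11.3%, or 2448 of 21755. Within 50 kb, 28 members had a summit, or 50% (36.3 to 63.7), against 36.7% of all genes, which lies just inside that interval. The intervals cover counting error only, and the members were not drawn at random. Members had a mean of 2.95 coding starts each and all genes 2.49, with a median of 2 in both. The part of the number of starts in the shares was not tested.

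In the longer pooled list the count was larger and the strength was not. There, 45 members (80.4%) had a summit within 1 kb of a start, against 47.3% of all genes. Yet the strongest pooled signal at those members had a median of 15.7 (quartiles 11.2 and 38.3), and the median over all genes with such a peak was also 15.7 (10.5 and 25.4). The upper quartile was thus higher among the members while the median was not. Ribosomal protein genes, the other large gene group of the translation machinery, had a pooled-list peak at 90.5% and a median of 35.9. They had an optimal summit within 1 kb at 49 of 84 genes (58.3%, interval 47.1 to 69.0). Proteasome genes, housekeeping genes of protein breakdown, had one at 8 of 50 (16.0%, interval 7.17 to 29.1), and in the pooled list their share of 78.0% and median of 16.4 were close to those of the initiation factor genes.

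**Figure D1:**
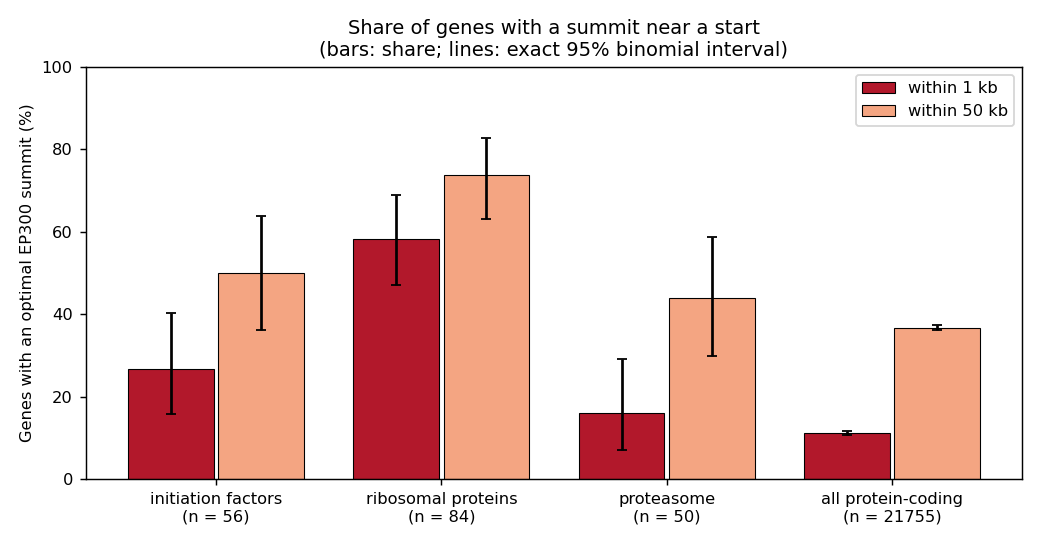
Share of genes with an optimal EP300 summit within 1 kb (dark bars) and within 50 kb (light bars) of a coding start, in percent, with exact 95% binomial intervals as lines. The initiation factor genes stand at 26.8% and 50%, below the ribosomal protein genes at 58.3% and 73.8% and above all protein-coding genes at 11.3% and 36.7%; their interval overlaps that of the proteasome genes at both distances, and within 50 kb it also overlaps that of the ribosomal protein genes and holds the share of all genes.

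The 15 members had 19 promoter peaks, since Eif5, Eif4a1, Eif4g2 and Eif2s3x had 2 each. The median signal of the 19 was 44.1 (quartiles 36.7 and 60.8, range 17.9 to 468.0). All 2952 promoter peaks had a median of 32.1 (quartiles 23.8 and 45.2, range 7.7 to 506.0), a ratio of 1.38. The ratio was 1.39 from the strongest 7737 peaks of library 1 alone and 1.11 from those of library 2 alone. So its size differed between the libraries. These ratios rest on 20 and 22 member peaks that are not the same as the 19, so they differ in peaks as well as in signal. Among the strongest 7737 peaks of both library lists were 15 of the 19 member peaks (78.9%) and 51.6% of all promoter peaks. The 2 peaks of Eif5 shared the same library peaks, as did the 2 of Eif2s3x, and each was counted.

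**Figure D2:**
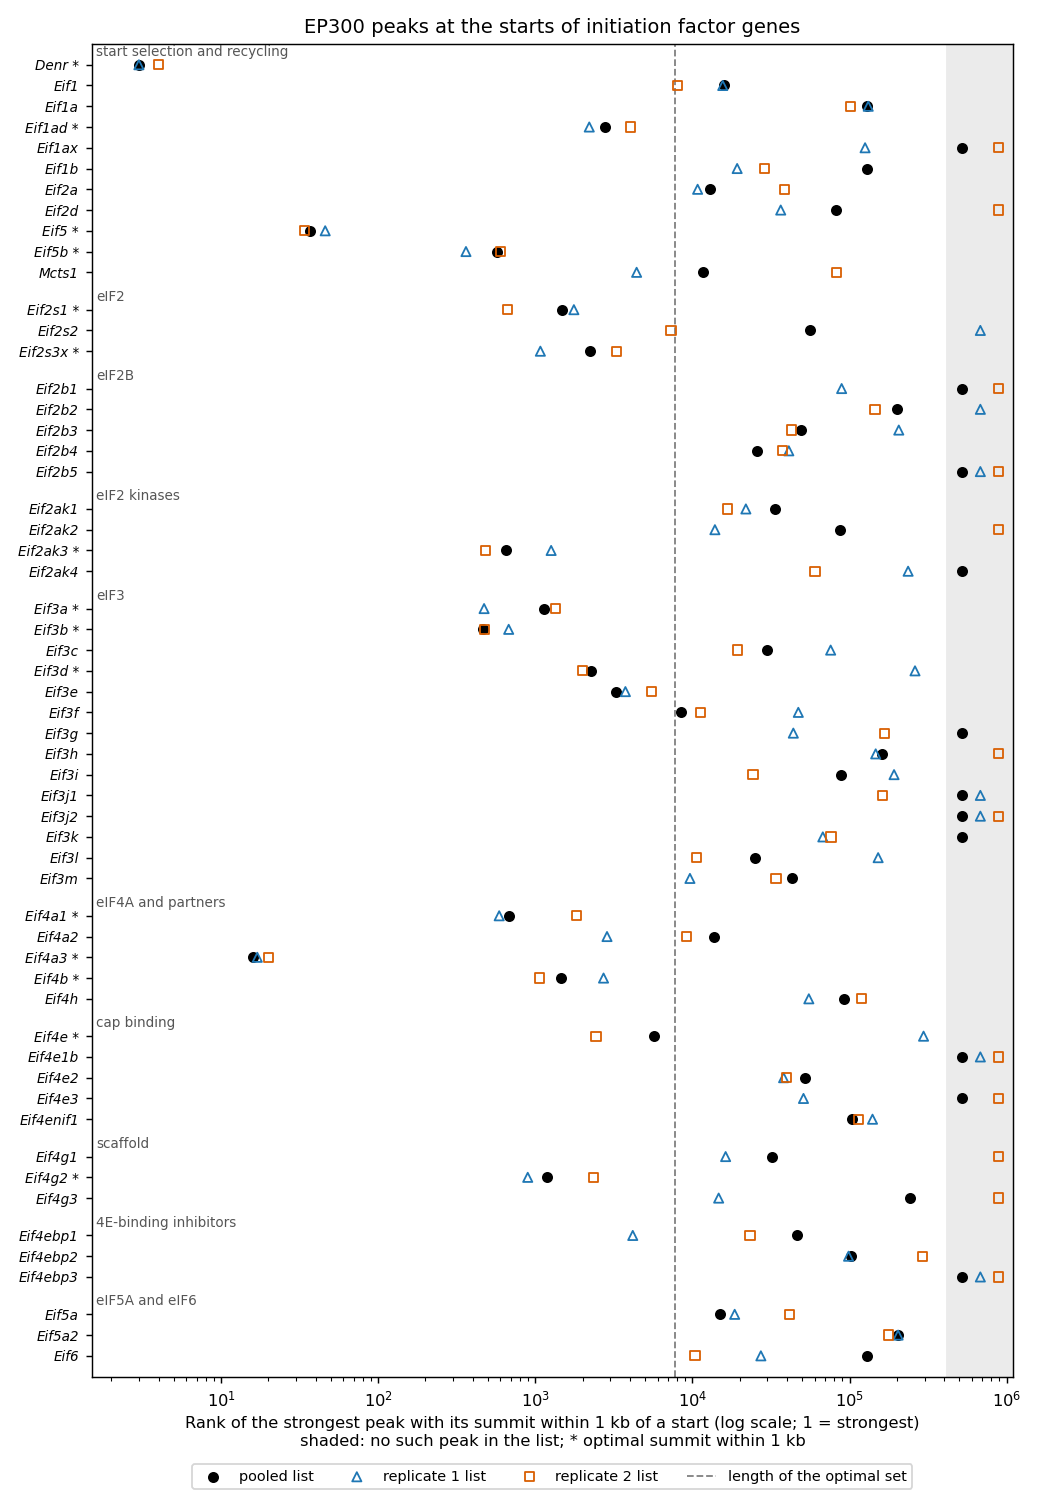
Rank of the strongest EP300 peak with its summit within 1 kb of a start of each of the 56 members, by role, in the pooled list (filled circles) and in the lists of replicate 1 (triangles) and replicate 2 (squares), on a log axis where 1 is the strongest. The shaded strip holds members with no such peak in a list, the dashed line stands at 7737, and an asterisk marks the 15 members with an optimal summit; Denr, Eif4a3 and Eif5 stand apart on the left in all 3 lists.

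Genes of start-site selection and recycling held 2 of the 3 strongest of these peaks. Denr, which with Mcts1 recycles the small subunit and supports reinitiation, had a signal of 468.0 and ranked 3 in the whole optimal set. Its signal was 243.0 in library 1 (rank 3) and 218.0 in library 2 (rank 4). The peak, at chr5:123907038-123907431, had its summit 50 bp downstream of the start, in an untranslated exon.

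Eif5, the factor that triggers GTP hydrolysis by eIF2, had a signal of 217.0 (rank 37), with 102.0 in library 1 and 116.0 in library 2 (ranks 46 and 34). That peak, at chr12:111537828-111538053, had its summit 42 bp upstream of a start. An overlapping optimal peak there had a signal of 17.9 and shared the same peaks of the library lists. So in effect Eif5 had a single strong site, listed next to a weak one.

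Eif5b, the GTPase that joins the ribosomal subunits, had a signal of 62.8, with 40.3 in library 1 and 32.0 in library 2. Its summit, in chr1:37996933-37997492, was 797 bp upstream of Eif5b and only 30 bp from a start of Txndc9, the gene on the opposite strand. Eif1ad had a signal of 35.3, with 21.8 and 16.8 in libraries 1 and 2, in chr19:5366481-5367040. That summit, 20 bp inside the gene, also fell in an untranslated exon of Banf1.

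Of the 7 other members with this role, Eif1, the gatekeeper of start-codon choice, had summits only beyond 1 kb, at 30658 bp and more. Eif1a, Eif1ax, Eif1b, Eif2a, Eif2d and Mcts1 had none within 50 kb. Mcts1, the partner of Denr, had a pooled-list peak of 20.5 at its start, with 17.3 in library 1 and 6.91 in library 2. The partners thus stood far apart, at ranks 3 and 11713 of the pooled list.

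Among the eIF2 subunits, Eif2s1 and Eif2s3x had promoter peaks and Eif2s2 did not. Eif2s1 encodes the alpha subunit, whose phosphorylation slows initiation. It had a signal of 43.9, with 23.5 and 30.9 in libraries 1 and 2, in chr12:78861371-78861930, and this summit was 13 bp from a start of Atp6v1d and 168 bp from that of Eif2s1. Eif2s3x, the X-linked gene of the gamma subunit, had 2 overlapping peaks of 38.3 and 31.7 that shared 1 peak in each library, at 27.4 and 18. The stronger lay in chrX:94212612-94213171, with its summit 183 bp upstream of the start. Eif2s2, the gene of the beta subunit, had no peak within 1 kb in the list of library 1 and one of 13.6 in that of library 2.

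None of the 5 eIF2B genes had a summit within 1 kb. Eif2b4 had 3 between 9022 and 27410 bp away, each within 1 kb of a start of another gene (Zfp513, Ppm1g or Gtf3c2), and Eif2b1, Eif2b2, Eif2b3 and Eif2b5 had none within 50 kb. Of the 4 eIF2 kinases, only Eif2ak3 had a promoter summit. It encodes PERK, the kinase of the endoplasmic reticulum stress response, and its peak in chr6:70844089-70844648 had a signal of 58.7, with 26.1 and 35.1 in libraries 1 and 2. The kinases known for responses to haem shortage (Eif2ak1), double-stranded RNA (Eif2ak2) and amino acid shortage (Eif2ak4) had no optimal summit within 50 kb.

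The genes of eIF3, the largest initiation factor, divided within the complex. Eif3a, Eif3b and Eif3d had promoter peaks, Eif3g, Eif3i, Eif3k and Eif3l had summits only farther away, and Eif3c, Eif3e, Eif3f, Eif3h, Eif3j1, Eif3j2 and Eif3m had none within 50 kb. Eif3b had a signal of 67.7, with 31.9 and 35.3 in libraries 1 and 2, in chr5:140418868-140419427. Eif3a had a signal of 48.0, with 36.7 and 24.3, in chr19:60790570-60791129. Both are core scaffold subunits, and both ranked high in each library, Eif3b at 677 and 476 and Eif3a at 472 and 1340.

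Eif3d, whose protein can bind the cap of some mRNAs in human cells, rested on library 2. Its optimal peak, in chr15:77970653-77971212, had a signal of 38.0 and a library 2 signal of 21.3, and no summit of the library 1 list lay inside it. The strongest library 1 peak within 1 kb of its start had a signal of 5.05, rank 260972 of 300000. A run of at least 15 A or T lay within 100 bp of the summit here and at Eif4e, whose library 1 peak was also weak. These were 2 of 19 member promoter peaks (10.5%), against 2.41% of all promoter peaks. The weaker promoter peaks of Eif4a1 and Eif4g2 held no such run, although their library 1 signals were 7.87 and 5.94. The part of such runs in the result was not tested.

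Of the eIF4A helicases and their partners, Eif4a3, Eif4a1 and Eif4b had promoter peaks. Eif4a3, the helicase of the exon junction complex, had a signal of 288.0 (rank 16), with 141.0 in library 1 and 139.0 in library 2 (ranks 17 and 20). That peak, at chr11:119299982-119300305, had its summit 49 bp upstream of the start. The helicase of initiation itself, Eif4a1, had a peak of 57.9 in its intron, in chr11:69671210-69671769 and 827 bp downstream of the start, with 33.6 and 20.1 in libraries 1 and 2. A weaker peak upstream, of 29.7, had 7.87 in library 1 and 22.0 in library 2.

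Eif4b, which stimulates the helicase, had a signal of 44.1, with 20.3 and 26.3 in libraries 1 and 2, in chr15:102073833-102074392, from a summit in its intron 249 bp downstream of a start. Eif4a2, the close relative of Eif4a1, had no optimal summit within 50 kb, and a pooled-list peak of 19.3. Eif4h, which also stimulates the helicase, had 1 summit, 36870 bp away in an intron of Limk1.

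Among the cap-binding genes, Eif4e, the cap-binding protein, had a promoter peak of 27.1 in chr3:138526773-138527332. It was uneven between libraries, with 4.78 in library 1 (rank 295803) and 19.9 in library 2 (rank 2437). Its relatives Eif4e1b, Eif4e2 and Eif4e3 had no optimal summit within 50 kb, and Eif4enif1, a binding partner that carries eIF4E, had 1, near Drg1, 38475 bp away.

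Of the scaffold genes, Eif4g2, whose protein lacks the eIF4E-binding site of its relatives, had promoter peaks of 47.3 and 39.5. The first, in chr7:111082797-111083356 with its summit 47 bp upstream of a start, had 29.2 and 20.2 in libraries 1 and 2, and the second, in the intron, 5.94 and 18.5. Eif4g1 had summits only at 42197 bp and more, and Eif4g3 a single one at 37787 bp. The inhibitors of eIF4E, Eif4ebp1, Eif4ebp2 and Eif4ebp3, had no promoter summit, and Eif4ebp3 alone had one within 50 kb, 6047 bp away, next to Sra1. Eif5a and Eif5a2, factors now known mainly for elongation, had summits only beyond 1 kb, and Eif6, which keeps the large subunit from joining too early, had none within 50 kb.

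**Figure D3:**
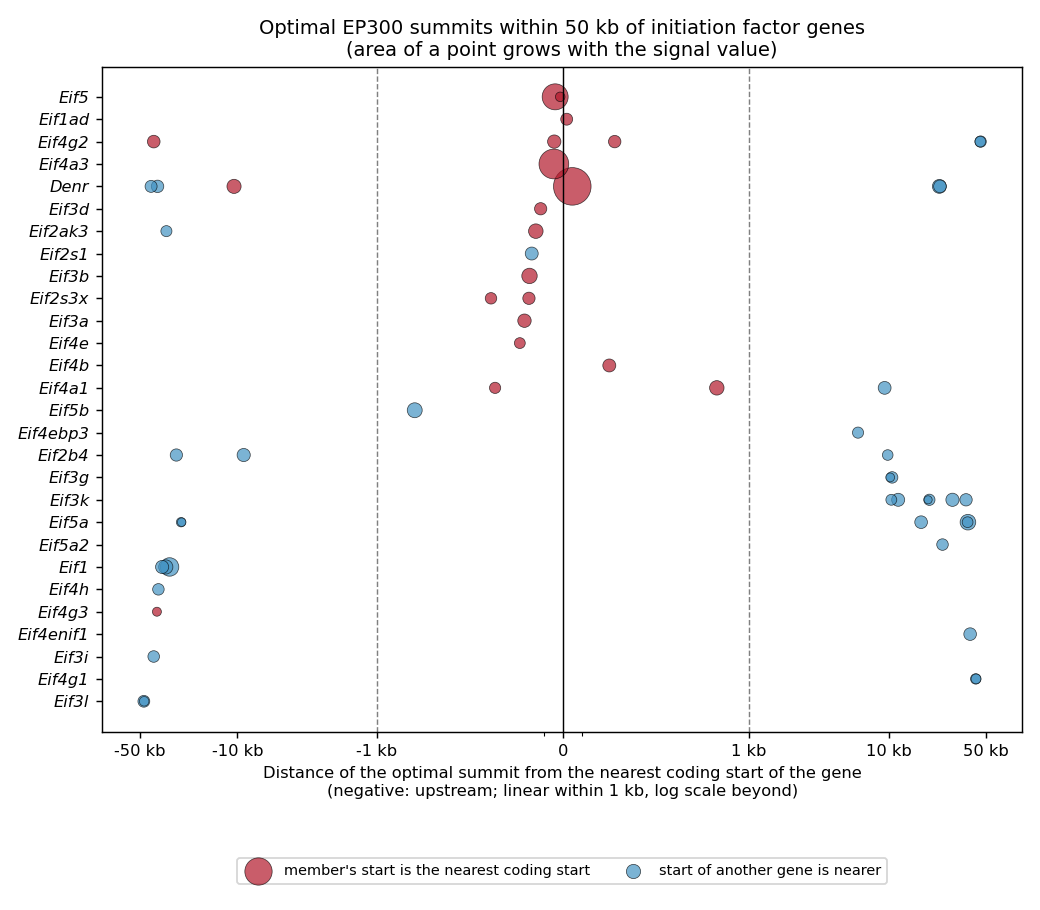
Position of every optimal summit within 50 kb of an initiation factor gene, for the 28 members with any, as distance from the nearest coding start of that gene (linear within 1 kb, log scale beyond; negative is upstream). Point area grows with the signal. Dark red points have the member's start as the nearest coding start, and blue points the start of another gene. Beyond 1 kb only 3 of 39 points are red.

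The summits beyond 1 kb mostly lay at other genes. There were 39 of them at 17 members, all different. For 25 of the 39, the summit was within 1 kb of the start of another coding gene. A member's start was the nearest coding start in 3. These 3 were a peak 10583 bp upstream of Denr with a signal of 55.0 (34.2 and 21.4 in libraries 1 and 2), one 39819 bp upstream of Eif4g2 with 41.3 (21.5 and 23.6), and one 37787 bp upstream of Eif4g3 with 14.3 (14.3 and 13.2). The Eif4g3 peak lay in an intron of Ece1, another coding gene. Eif3k had 6 summits, all nearest to a start of Actn4, and Eif5a had 5, the strongest of them (70.0) at Kctd11. When each summit was given to its nearest start alone, 14 of the 56 members had a summit within 50 kb. This was a larger share than the 17.3% of all genes (3754 of 21755).

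The limit of 1 kb cut through no crowd of values. The farthest members inside it were Eif5b, Eif4a1 and Eif4b, with nearest summits at 797, 365 and 249 bp, and the nearest outside were Eif4ebp3, Eif2b4 and Eif3g at 6047, 9022 and 10280 bp. At 50 kb, Eif3l, Eif4g1 and Eif3i lay just inside, at 46680, 42197 and 39840 bp. Eif2b5, Eif1b and Eif3j1 lay just outside, at 53661, 55015 and 58211 bp.

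Of the 41 members with no optimal summit at a start, 30 had a peak of the pooled list there (73.2%), against 40.6% of all genes with no optimal summit at a start. Of the 28 with none within 50 kb, 20 had one (71.4%), against 36.3% of all such genes. Eif3e had the strongest, at 33.4, with 18.3 in library 1 (rank 3745) and 15.1 in library 2 (rank 5463), and it was in the conservative IDR set although not in the optimal one. Eif3f had a pooled signal of 23.4, Mcts1 20.5, Eif2a 19.7, Eif4a2 19.3, Eif5a 18.7 and Eif1 18.3. The 11 with no pooled-list peak within 1 kb were Eif1ax, Eif2ak4, Eif2b1, Eif2b5, Eif3g, Eif3j1, Eif3j2, Eif3k, Eif4e1b, Eif4e3 and Eif4ebp3.

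The member promoter peaks lay about as far from the start as other promoter peaks and were richer in GC and CpG. The summit was upstream of the start in 13 of 19 member peaks (68.4%), against 61.0% of other promoter peaks, and the median distance was 146 bp against 142 bp. The median GC content within 100 bp of the summit was 64.2% at member peaks and 59.7% at the others, with members from 39.3% at Eif3b to 70.6% at Eif4a3. The median ratio of observed to expected CpG was 0.939 at member peaks and 0.769 at the others. The peaks of Denr, Eif4a3 and Eif5 were narrower than the list's full width of 560 bp, at 394, 324 and 226 bp. Narrow peaks made up 15.8% of member promoter peaks and 4.57% of the others.

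A coding gene on the opposite strand started within 1 kb upstream of a start of 8 members (14.3%), against 8.74% of all genes. Opposite-strand starts downstream of a member's start were not counted. Of the 8, Eif2s1 and Eif5b had a promoter summit (25%), and so had 13 of the 48 members without such a neighbour (27.1%). Among all genes the shares were 28.4% with a neighbour and 9.61% without. Denr, Eif4a3 and Eif5 had no such neighbour.

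The motifs were searched on both strands within 100 bp of each summit, and a match is a description of letters, not of a bound factor. The SP and KLF box GGGCGG lay at 9 of 19 member promoter peaks (47.4%), against 39.4% of all promoter peaks. TGACG, the shorter form of the cAMP response element (CRE), lay at 26.3% against 21.1%, the ETS motif at 21.1% against 12.8%, and CCAAT at 21.1% against 24.8%. The ETS peaks were those of Eif1ad, Eif2s1, Eif3d and the upstream peak of Eif4a1. The E-box CACGTG lay at Eif4a1 and Eif4e (10.5%, against 6.06%). In windows of 50 bp the order turned for 2 of these motifs: GGGCGG lay at 15.8% of member peaks and 22.0% of all promoter peaks, and CCAAT at 21.1% and 14.8%. Each share within 100 bp rests on at most 9 peaks, and its interval spans the share of all promoter peaks.

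Some motifs occurred at a single member promoter peak. The NRF1 motif GCGCATGC lay at Denr (1.66% of all promoter peaks) and the letters TATAAA at Eif3b (5.18%), around a summit 180 bp upstream of its start. The AP-1 motif TGANTCA (4.61%) and the ZNF143 and THAP11 motif ACTACAA (1.73%) lay at Eif2ak3. The YY1 motif AAGATGGCG, the full CRE TGACGTCA, the ATF4 and CEBP composite TGATGNAA and the full CTCGCGAG lay at no member promoter peak. They lay at 2.54%, 1.25%, 1.36% and 6.67% of all promoter peaks.

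The 6-letter CGCG core was searched after the values had been seen. It lay at 4 of 19 member promoter peaks (21.1%, interval 6.05 to 45.6), against 320 of 2952 promoter peaks in all (10.8%). The 4 peaks with the core had signals of 468.0 (Denr), 288.0 (Eif4a3), 217.0 (Eif5) and 62.8 (Eif5b), and the 15 without it ran from 17.9 to 67.7, with a median of 39.5. So the 3 strongest member peaks had the core and the peak of Eif5b fell within the range of those without. Over all promoter peaks the median was 86.5 with the core and 30.6 without.

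The same order held across the whole list of promoter peaks. Of the 100 strongest, 85 had the core (85.0%, interval 76.5 to 91.4), among them all 3 member peaks of that class. The share was 50% at ranks 101 to 300, which held no member, and 10.3% at ranks 301 to 1000, where 1 of 9 member peaks had it. Below rank 1000 it was 3.23%, with none of 7 member peaks. The core at the strongest member peaks is therefore a trait they shared with the strongest promoter peaks of other genes.

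**Figure D4:**
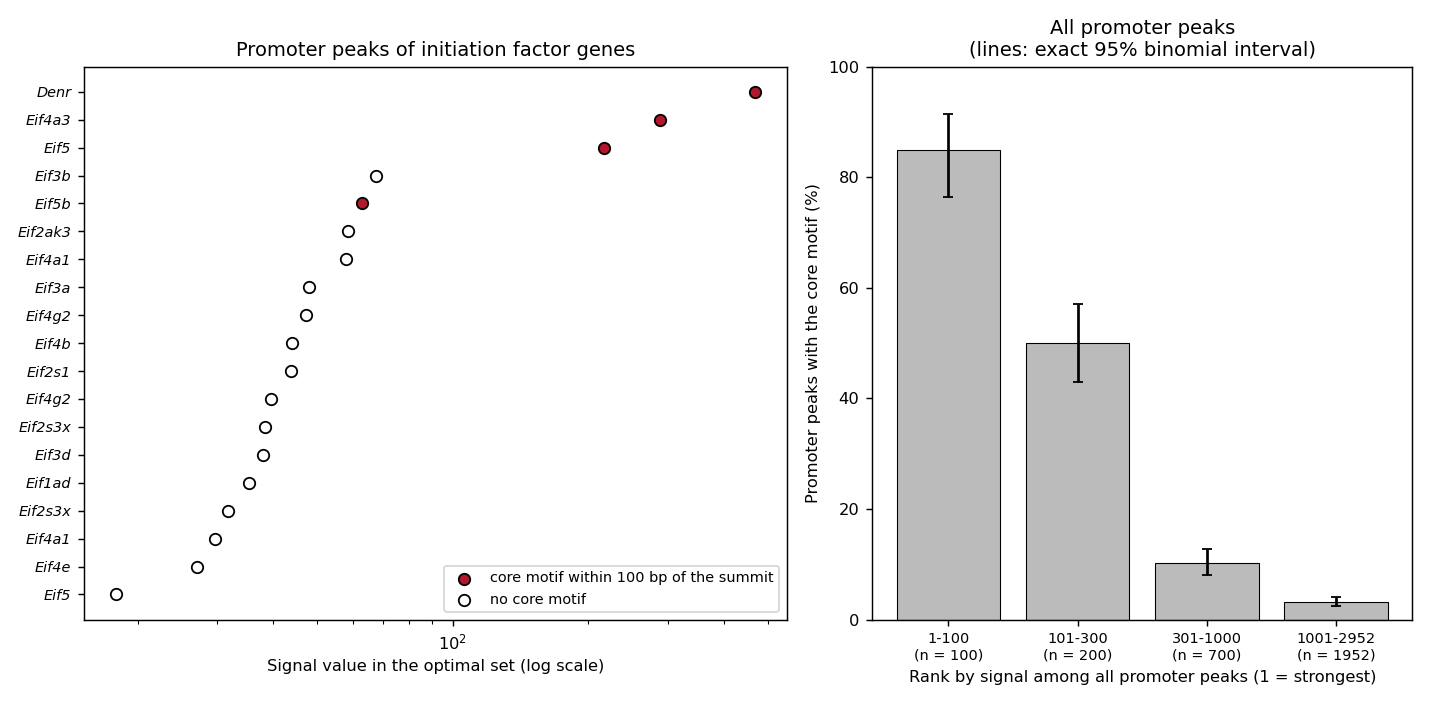
Left, signal of the 19 promoter peaks of initiation factor genes in the optimal set (log axis), filled where the core motif lies within 100 bp of the summit. Right, share of all promoter peaks with that motif by rank of signal, with exact 95% binomial intervals; the share is 85.0% among the 100 strongest, which include Denr, Eif4a3 and Eif5, and 3.23% at the ranks beyond 1000.

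The core was also looked for in RefSeq promoters of GRCm38.p6, from 250 bases before the start to 50 after it. Of the 44 members with such a promoter, 5 held it. Denr, Eif4a3 and Eif5 are the genes whose peaks prompted the search, so this count is not independent of the peaks. Of the other two, Eif4b had a promoter summit and Eif4enif1 had none. Over 16450 genes the core lay in 3.96% of promoters, and 43.0% of those genes had a promoter summit, against 10.7% of the genes without it.

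Other genes of translation control were counted the same way, and 13 of 37 had a promoter summit (35.1%, against 11.3% of all genes), with 24 (64.9%, against 36.7%) within 50 kb. The list was chosen by hand with results of these data known. Of 25 genes of initiation control and its signalling, 9 had one, and of 12 genes of elongation and termination 4 had one. Bzw1, which encodes an eIF5-mimic protein, had the strongest, at 145.0 (rank 110), with 61.4 and 76.2 in libraries 1 and 2. Etf1, the gene of the release factor, had 76.8, with 36.3 and 36.9, and both of these peaks held the CGCG core. Ddx3x, the gene of a helicase, had a weaker peak with the core, at 55.4 (rank 752), with 19.7 and 26.1. The other 10 genes with a promoter summit had none at their strongest peak, among them Eef1b2, of an elongation exchange factor, at 66.6.

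Genes that act with eIF2 phosphorylation were also among them. Atf4, the transcription factor whose translation rises when eIF2 is phosphorylated, had a peak of 73.8, with 49.0 and 26.1 in libraries 1 and 2. Ppp1r15a, which guides the eIF2 phosphatase, had 40.3, with 27.0 and 14.6, and Ppp1r15b, its constitutive relative, had 24.3, with 13.7 and 12.1. Ddit3, Atf5 and Trib3, which act in the same stress response, had no promoter summit; Ddit3 and Atf5 had summits farther away and Trib3 none within 50 kb. Upstream of eIF4E, Rheb, the activator of mTOR, had 54.8, with 38.3 and 20.7, while Mtor itself had summits only beyond 1 kb.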

How the data were processed

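The authors deposited 5 narrowPeak lists on mm10: 1 for each library, 1 for both pooled, and an optimal and a conservative IDR set made from those 3 and a further file, per the readme texts. The deposited signal value ranks peaks inside 1 list and carries no scaling across lists. The deposited IDR score was not used. Summits are other deposited values, in bp counted from 0 at the peak's first base. The lists hold no read counts, so depth is unknown. Caller and aligner: not given in the sources used here.

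Starts and exons came from GENCODE M21 and promoter sequences from RefSeq. Coordinates are 1-based. A library's signal at an optimal peak is that of its strongest peak with a summit inside. Counts, medians and exact (Clopper-Pearson) 95% intervals were computed with Python 3.11.15, pandas 2.3.3, scipy 1.17.1 and pysam 0.24.0, and the counting was tested on simulated data. No test was run, since the libraries form 1 group and members and lists were chosen with earlier results of these data known. Every member is named by class; the strongest peaks and those near a limit are given in full. The symbol Gcn1 had no match. Alternatives were other peak sets, libraries, distances, starts and windows.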

Additional observations from a re-analysis of the deposited data

How the results depend on the processing

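The count of members with a summit within 1 kb, 15 of 56, was between 12 and 17 in all other settings save one. In those settings the share of members was 21.4% to 30.4% and that of all genes 7.94% to 13.6%. The exception, the use of any pooled-list peak, gave 45 (80.4%, against 47.3% of all genes). With the strongest 7737 peaks of either library alone it was 17 each time (30.4%), the range being 17 to 17. Of all genes, 13.6% had such a summit with library 1 and 12.3% with library 2. The members differed. Library 1 alone lost Eif3d and Eif4e and gained Eif3e, Eif4a2, Eif4ebp1 and Mcts1. Library 2 alone lost none and gained Eif2s2 and Eif3e. The conservative set gave 12, with Eif1ad, Eif2s3x, Eif3d and Eif4e lost and Eif3e gained. The 50 kb count of 28 was 14 with summits given to the nearest start only and 17 within 10 kb, and ranged from 28 to 33 with either library alone. The ratio of median signals, 1.38, was 1.63 in the conservative set and 1.1 in the 3868 strongest peaks of the optimal set, and from 1.11 to 1.39 with either library alone; the cause was not tested. In windows of 50 bp the share of member peaks was 0% for NRF1 (0.508% of all promoter peaks), 15.8% for SP and KLF (22.0%) and 0% for ZNF143 and THAP11 (1.02%), fewer bases being searched; SP and KLF turned from above to below the share of all promoter peaks, and NF-Y, at 21.1% (14.8%), from below to above, and the other 25 of 28 motif settings stayed within the counting interval. The CGCG core, the settings without narrow peaks and the use of any pooled-list peak were chosen after seeing the data. No paired analysis was possible because the libraries form 1 group. Unknown depth and 2 libraries limit what a missing peak can say: Eif3d and Eif4e were in the optimal set with almost no library 1 signal, and 20 of the 28 members without a summit within 50 kb had a pooled-list peak at a start (71.4%, against 36.3% of all such genes).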

Other observations

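Eif1 lay beside a cluster of strong distal summits. Its 3 summits, in chr11:100288947-100289506, chr11:100286956-100287515 and chr11:100284934-100285493, had signals of 103.0, 55.6 and 45.7. They lay 30658 to 34671 bp upstream of Eif1, and the nearest coding start in each case was that of Krt42, a keratin gene, at 15343 to 19356 bp. The strongest had 40.2 in library 1 and 62.4 in library 2, and its rank of 196 was higher than that of any member promoter peak other than those of Denr, Eif4a3 and Eif5.

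The 6 summits within 50 kb of Eif3k had signals from 9.15 to 46.1, and 3 of them held the AP-1 motif within 100 bp. That motif lay at 4.61% of all promoter peaks, and its share over summits beyond 1 kb was not computed. For all 6 summits the nearest coding start was one of Actn4, the gene of an actin cross-linker. At Denr, the summits beyond 1 kb included a pair at the start of Ccdc62, with signals of 52.8 and 41.3. The stronger of the pair held the full CTCGCGAG, and with it the CGCG core.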
